A study of Mus musculus with 36 samples.

Results

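Gpnmb and 9 further genes of lipid-handling macrophages (Trem2, Tyrobp, Spp1, Apoe, Cd9, Lgals3, Cd36, Abca1 and Msr1) were followed through the distal colon of 36 mice. Each gene was represented by the probe set annotated to that gene alone, and to no other, with the highest mean signal over the 36 arrays. For 9 of the 10 listed genes such a probe set was found, 1 each, among 19938 genes with a probe set of their own on the array. Spp1, which encodes osteopontin, had none in the annotation used, so its expression was not analysed here. Gpnmb was chosen by its difference between the scrambled and Control groups in these same arrays, where it ranked 10 among all probe sets. Serpina3n (2.44 log2) and Iigp1 (2.43 log2) stood just above it at 2.32 log2, and Aldh1a3 (2.25 log2) and Ms4a6d (2.23 log2) just below. The other genes were listed with results of these data known. Member values set against Control are therefore given as a description, with no test. Calls and differences of other genes in that contrast are likewise given as a description.

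The study asked how small interfering RNAs against TNFa, given into the rectum and differing in chemical modification, act on the inflamed colon. The groups were siTNF (unmodified siRNA, 6 mice), siTNF-OMe (O-Methyl nucleotides, 6 mice), siTNF-OMe-P (O-Methyl-propanediol nucleotides, 8 mice), scrambled (a scrambled siRNA, 7 mice) and Control (9 mice). The labels give 5% DSS, dextran sulfate sodium, a polysaccharide that injures the colon lining, as the treatment of all 36 mice, Control included. The design text lists the siRNA-dosed groups alone, so what the Control mice received was not settled by the sources used here. Strain, sex, age, siRNA dose and times were not given in the sources used here, and each array held the RNA of 1 animal. Animals fell on 3 amplification dates and 2 hybridization dates, and every group was present on each date.

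Gpnmb is a transmembrane glycoprotein that macrophages make when their lysosomes are loaded with lipid and debris. Trem2 is a lipid-sensing receptor that signals through the adaptor Tyrobp, and together with Apoe, Cd9, Cd36, Lgals3 and Spp1 it marks macrophages that take up dying cells and lipoproteins in fat, plaque, liver and brain. Scavenger receptors bring lipid in, lysosomes break it down, and the transporter Abca1 passes cholesterol out to apolipoproteins such as Apoe.

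As a check of the series, the targeted gene Tnf was called in none of the 6 comparisons among siRNA-dosed groups. Its log2 signal ran from 8.72 through a median of 9.17 to 9.42 in siTNF, from 8.41 through 8.8 to 9.09 in siTNF-OMe, from 8.42 through 8.7 to 8.94 in siTNF-OMe-P, from 8.36 through 8.67 to 9.47 in scrambled and from 7.6 through 7.91 to 8.67 in Control. The Tnf difference of siTNF over scrambled was 0.19 log2, that of siTNF-OMe over scrambled was -0.12 log2, and that of siTNF-OMe-P over scrambled was -0.23 log2 (limma adjusted p = 1.0 for each). The smallest unadjusted p of Tnf among the 6 was that of siTNF-OMe-P over siTNF, 0.0137 for -0.41 log2 (limma adjusted p = 0.974). Colon epithelium markers were bright, with a list mean of 11.7 to 12.4 log2 over all arrays. The spread of log2 values over the probe sets of an array differed between arrays, with SDs of 1.55 to 1.89. Of 8 arrays with an SD under 1.7, here called narrow, 1 was siTNF, 2 were siTNF-OMe-P, 1 was scrambled and 4 were Control. Differences without the narrow arrays stand beside those of Trem2, Cd36 and Abca1. For scrambled over Control they also stand beside those of Gpnmb, Apoe, Cd9 and the named list genes.

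The promoters of Gpnmb, Trem2 and Abca1 are shown because these genes stand for the lysosomal, receptor and efflux arms of the biology. Each line holds the 250 bases before the annotated start, 5′ to 3′ on the gene's strand, from RefSeq on build GRCm38.p6. Gpnmb lies at chr6:49036268-49036517 (plus strand), Trem2 at chr17:48346151-48346400 (plus strand) and Abca1 at chr4:53159896-53160145 (minus strand). Capitals mark matches, on either strand, to 4 motifs: the AP-1 site TGANTCA, the E-box CACGTG bound by MITF and TFE factors, the PU.1 core GAGGAA, and the nuclear receptor half-site AGGTCA.

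Gpnmb: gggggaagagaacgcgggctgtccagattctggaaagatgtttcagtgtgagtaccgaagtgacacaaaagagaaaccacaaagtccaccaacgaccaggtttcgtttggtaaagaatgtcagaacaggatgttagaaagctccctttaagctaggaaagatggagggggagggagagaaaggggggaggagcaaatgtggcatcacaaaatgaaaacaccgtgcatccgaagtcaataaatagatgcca
Trem2: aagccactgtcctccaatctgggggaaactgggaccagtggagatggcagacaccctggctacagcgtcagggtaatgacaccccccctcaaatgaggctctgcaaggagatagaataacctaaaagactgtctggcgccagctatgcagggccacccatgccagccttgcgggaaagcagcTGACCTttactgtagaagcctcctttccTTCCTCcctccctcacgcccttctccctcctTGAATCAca
Abca1: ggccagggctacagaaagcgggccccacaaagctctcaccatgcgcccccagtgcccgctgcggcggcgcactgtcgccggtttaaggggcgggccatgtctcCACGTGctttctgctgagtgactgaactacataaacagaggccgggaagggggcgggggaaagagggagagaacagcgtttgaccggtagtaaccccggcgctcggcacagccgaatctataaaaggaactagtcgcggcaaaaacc

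The Gpnmb window held none of the 4 motifs. In Trem2 the AP-1 site began 9 bases before the start, the PU.1 core 40 bases before it and the half-site 68 bases before it, with no overlap between them. In Abca1 the E-box began 147 bases before the start. Of the 10 listed genes 8, Spp1 included, had an annotated promoter, taken as the one nearest the gene's annotated start. The nearest promoter still began 53063 bases from that start for Cd36 and 2122 bases from it for Apoe. The AP-1 site was found in 1 of the 8 and the E-box in 1. The PU.1 core was found in 3 (Trem2, Spp1 and Apoe) and the half-site in 2 (Trem2 and Cd36). Over 32536 distinct promoter windows of the same length, 6.73% held the AP-1 site, 6.04% the E-box, 23.4% the PU.1 core and 14.0% the half-site. A match is a run of letters and was not tested as a bound site.

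The Gpnmb level separated siRNA-dosed from Control colon with a wide gap. Its log2 signal ran from 10.24 through a median of 10.56 to 11.08 in siTNF, from 10.57 through 10.94 to 11.17 in siTNF-OMe, and from 10.08 through 10.76 to 11.16 in siTNF-OMe-P. In scrambled colon Gpnmb lay between 10.04 and 11.05, with a median of 10.59, and in Control colon between 7.91 and 8.5, with a median of 8.22, close to the median of all probe sets on those arrays (7.98 to 8.25). The lowest siRNA-dosed array thus lay above the highest Control array, while the 4 siRNA-dosed groups overlapped throughout. With amplification and hybridization dates as terms of the fit, Gpnmb was 2.39 ± 0.16 log2 higher in siTNF than in Control, 2.64 ± 0.16 in siTNF-OMe, 2.47 ± 0.14 in siTNF-OMe-P and 2.32 ± 0.15 in scrambled (difference ± SE; n as above). The last is a 4.99-fold difference. These 4 differences share the same 9 Control arrays and are not independent of each other. Within the amplification dates the scrambled over Control difference of Gpnmb was 2.87, 2.13 and 2.26 log2, and it was 2.31 without the narrow arrays. Date 1 holds 1 scrambled and 2 Control arrays, so the first of the values given by date here and for other genes rests on a single scrambled array.

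**Figure D1:**
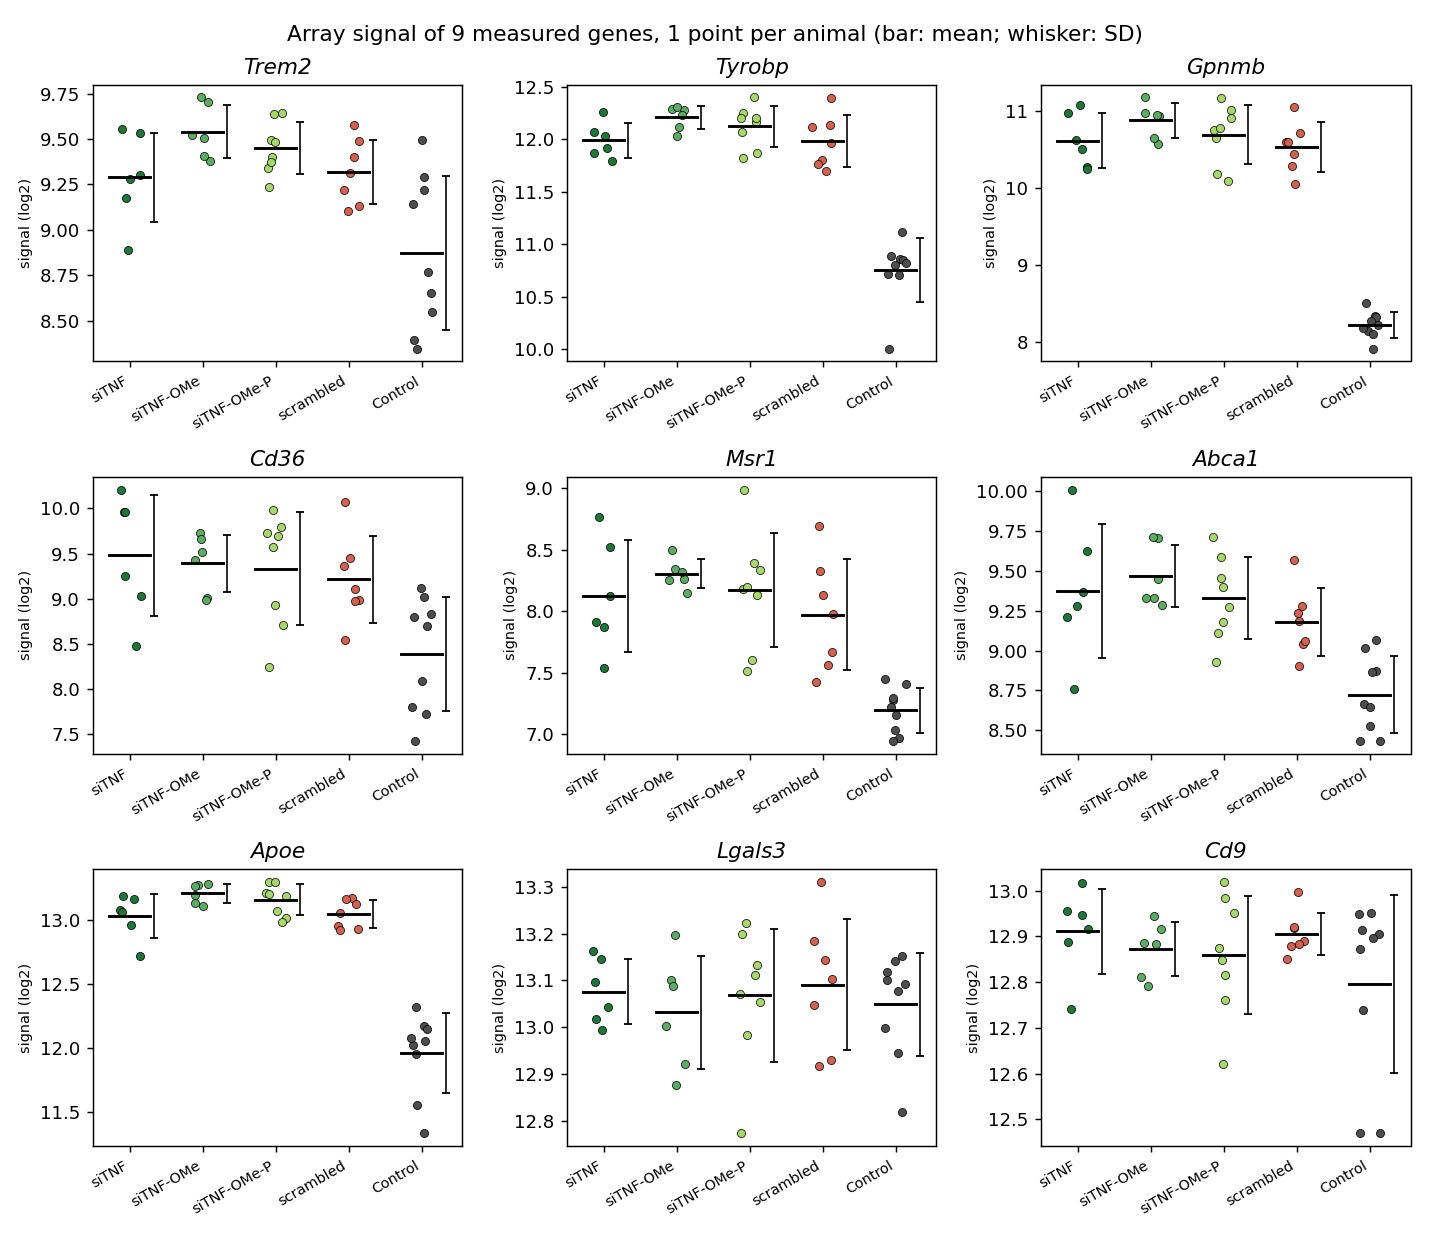
Log2 array signal of the 9 measured genes (vertical axes, each panel on its own scale) in the 5 groups (horizontal axes), 1 point per animal, with group means as bars and SDs as whiskers. Gpnmb, Tyrobp and Apoe stand apart from Control in all 4 siRNA-dosed groups, while Lgals3 and Cd9 overlap between all 5.

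The receptor Trem2 and its adaptor Tyrobp did not move alike. Tyrobp, which also pairs with other activating receptors of myeloid and natural killer cells, ran from 11.79 through a median of 11.98 to 12.26 in siTNF, from 12.04 through 12.26 to 12.31 in siTNF-OMe, from 11.83 through 12.18 to 12.4 in siTNF-OMe-P, from 11.7 through 11.96 to 12.4 in scrambled, and from 10.0 through 10.82 to 11.12 in Control. None of its siRNA-dosed arrays reached down to the Control range. Tyrobp was 1.25 ± 0.12 log2 higher in siTNF than in Control, 1.46 ± 0.12 in siTNF-OMe, 1.36 ± 0.11 in siTNF-OMe-P and 1.24 ± 0.11 in scrambled, the last a 2.36-fold difference.

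Trem2 ran from 8.89 through a median of 9.29 to 9.56 in siTNF, from 9.38 through 9.51 to 9.73 in siTNF-OMe, from 9.24 through 9.44 to 9.64 in siTNF-OMe-P, from 9.1 through 9.31 to 9.57 in scrambled, and from 8.35 through 8.77 to 9.49 in Control. Its Control arrays were spread over more than the siRNA-dosed ones (SD 0.25 in siTNF, 0.15 in siTNF-OMe, 0.14 in siTNF-OMe-P, 0.18 in scrambled and 0.42 in Control), and the groups overlapped. Trem2 was 0.44 ± 0.14 log2 higher in siTNF than in Control, 0.65 ± 0.14 in siTNF-OMe, 0.58 ± 0.13 in siTNF-OMe-P and 0.44 ± 0.13 in scrambled. Without the narrow arrays these values were 0.7, 0.98, 0.88 and 0.74. The scrambled over Control difference was 1.08, 0.04 and 0.58 within the 3 amplification dates. After group means were removed, the Trem2 signal went down as the array's SD went up (Pearson's r = -0.86 over 36 arrays, on quantile-normalized values). The same r was 0.0 for Gpnmb and -0.11 for Tyrobp. On the deposited values r was -0.71 for Trem2, 0.04 for Gpnmb and 0.39 for Tyrobp.

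Of the scavenger receptors, Msr1, which binds modified lipoproteins, ran from 7.54 through a median of 8.02 to 8.77 in siTNF, from 8.15 through 8.29 to 8.49 in siTNF-OMe, from 7.51 through 8.19 to 8.99 in siTNF-OMe-P, from 7.43 through 7.98 to 8.69 in scrambled, and from 6.95 through 7.22 to 7.45 in Control. Of its scrambled arrays, 6 of 7 lay above every Control array, and all arrays of the other siRNA-dosed groups did. Msr1 was 0.97 ± 0.17 log2 higher in siTNF than in Control, 1.08 ± 0.17 in siTNF-OMe, 0.96 ± 0.15 in siTNF-OMe-P and 0.78 ± 0.16 in scrambled. The last value was 0.94, 1.06 and 0.44 within the 3 amplification dates.

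Cd36, a receptor for oxidized lipoproteins and long-chain fatty acids that fat cells and capillary endothelium also carry, ran from 8.48 through a median of 9.6 to 10.21 in siTNF, from 8.99 through 9.47 to 9.73 in siTNF-OMe, from 8.24 through 9.63 to 9.98 in siTNF-OMe-P, from 8.54 through 9.11 to 10.07 in scrambled, and from 7.42 through 8.7 to 9.12 in Control. By its median SD within the siRNA-dosed groups, 0.55, it was the most scattered of the 9 genes, and it overlapped between all groups. Cd36 was 1.09 ± 0.28 log2 higher in siTNF than in Control, 0.98 ± 0.28 in siTNF-OMe, 0.93 ± 0.26 in siTNF-OMe-P and 0.85 ± 0.27 in scrambled. Without the narrow arrays these values were 0.5, 0.44, 0.61 and 0.31. Cd36 deviations followed the array's SD (r = 0.7). They also followed the mean of 8 blood endothelium markers (r = 0.68) and of 7 adipocyte markers (r = 0.47), over the same 36 arrays. These were 0.51 and 0.66 when the narrow arrays were left out. Of the endothelial markers 5 of 8 were called higher in scrambled than in Control (list mean 8.95 to 9.57 log2 in scrambled, 8.33 to 8.95 in Control). Of the adipocyte markers 1 of 7 was, Fabp4 (list mean 8.15 to 9.57 in scrambled, 7.62 to 8.96 in Control). Over all probe sets 7.27% were called higher. Fabp4 also stands in the lipid-associated macrophage list described further on. The part of endothelial and fat cells in the Cd36 values was not tested.

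The group means of the cholesterol efflux genes Apoe and Abca1 were higher in each siRNA-dosed group than in Control. Apoe, the apolipoprotein that carries lipid away from macrophages, ran from 12.72 through a median of 13.07 to 13.19 in siTNF, from 13.11 through 13.23 to 13.28 in siTNF-OMe, from 12.99 through 13.2 to 13.3 in siTNF-OMe-P, from 12.93 through 13.06 to 13.17 in scrambled, and from 11.33 through 12.05 to 12.32 in Control. No siRNA-dosed array overlapped with Control. Apoe was 1.06 ± 0.095 log2 higher in siTNF than in Control, 1.26 ± 0.095 in siTNF-OMe, 1.19 ± 0.087 in siTNF-OMe-P and 1.1 ± 0.09 in scrambled. The last is a 2.15-fold difference, and it was 0.95 log2 without the narrow arrays.

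Abca1, the transporter that loads cholesterol onto apolipoproteins, ran from 8.76 through a median of 9.32 to 10.01 in siTNF, from 9.29 through 9.39 to 9.71 in siTNF-OMe, from 8.93 through 9.34 to 9.71 in siTNF-OMe-P, from 8.9 through 9.18 to 9.56 in scrambled, and from 8.43 through 8.66 to 9.07 in Control. The siTNF-OMe arrays all lay above Control, and the other siRNA-dosed groups overlapped with it. Abca1 was 0.65 ± 0.13 log2 higher in siTNF than in Control, 0.74 ± 0.13 in siTNF-OMe, 0.59 ± 0.12 in siTNF-OMe-P and 0.48 ± 0.13 in scrambled. Leaving out the narrow arrays gave 0.35, 0.55, 0.42 and 0.29. The scrambled over Control difference was 0.13, 0.74 and 0.33 within the amplification dates.

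Lgals3, a galactoside-binding lectin of macrophages and gut epithelium, overlapped between all 5 groups. It ran from 12.99 through a median of 13.07 to 13.16 in siTNF, from 12.88 through 13.05 to 13.2 in siTNF-OMe, from 12.77 through 13.09 to 13.22 in siTNF-OMe-P, from 12.92 through 13.1 to 13.31 in scrambled, and from 12.82 through 13.09 to 13.15 in Control. The scrambled over Control difference was 0.04 log2, with a 95% interval of -0.09 to 0.17.

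The tetraspanin Cd9, a membrane organizer of macrophages, platelets and epithelia, behaved likewise. It ran from 12.74 through a median of 12.93 to 13.02 in siTNF, from 12.79 through 12.88 to 12.94 in siTNF-OMe, from 12.62 through 12.86 to 13.02 in siTNF-OMe-P, from 12.85 through 12.89 to 13.0 in scrambled, and from 12.47 through 12.9 to 12.95 in Control. The scrambled over Control difference was 0.11 log2, with a 95% interval of -0.02 to 0.25, and -0.02 without the narrow arrays. The Cd9 probe set outshone 98.8% of all probe sets and that of Lgals3 99.2%. Within groups both followed the mean of 10 colon epithelium markers (r = 0.69 for Cd9 and 0.52 for Lgals3) and not that of 13 macrophage and monocyte markers (r = -0.04 and -0.3). Without the narrow arrays the r with epithelium markers was 0.55 for Cd9 and 0.44 for Lgals3, and with macrophage and monocyte markers -0.57 and -0.53 (28 arrays; this alternative was chosen after seeing the data). Cd9 also moved with the array's SD (r = 0.71).

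Arrays without overlap were thus counted for Gpnmb, Tyrobp and Apoe in all 4 siRNA-dosed groups. Every scrambled array lay above every Control array for 3 of the 9 genes, against 1.82% of all probe sets. For siTNF the count was 4 of 9 (Msr1 added), against 2.29% of all probe sets. For siTNF-OMe it was 5 of 9 (Msr1 and Abca1 added), against 4.56%, and for siTNF-OMe-P it was 4 of 9 (Msr1 added), against 2.5%. Nothing is read from these shares, since the scrambled and Control arrays served to choose Gpnmb. The median difference over the 9 genes was 0.97 log2 for siTNF over Control, 0.98 for siTNF-OMe, 0.93 for siTNF-OMe-P and 0.78 for scrambled, while the median over all probe sets lay between -0.05 and -0.026.

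Macrophage and monocyte markers stood higher beside these genes. Of 15 listed markers 13 were measured, and 11 of them were called higher in scrambled than in Control (limma adjusted p under 0.05), with none called lower and none among the dimmest 40% of probe sets, against 7.27% of all probe sets called higher. Of the markers of other cells, 6 of 6 of smooth muscle, 5 of 8 of blood endothelium and 3 of 7 of fibroblasts were called higher too. The mean of the list ran from 9.83 to 10.46 log2 in siTNF, from 10.08 to 10.33 in siTNF-OMe, from 9.78 to 10.53 in siTNF-OMe-P, from 9.81 to 10.43 in scrambled and from 8.62 to 9.37 in Control, so that Control did not overlap with the rest. Cd68, Cd163 and Mrc1 of this list also stand in the pathway lists described further on. In whole tissue, more cells of a type and more RNA per cell cannot be told apart. Melanocytes and osteoclasts also make Gpnmb. Of 6 melanocyte and 5 osteoclast and bone markers measured, none was called in scrambled over Control (none at an unadjusted p under 0.05 either). Among the dimmest 40% of probe sets were 3 and 4 of them, and dim markers can miss a difference. The part of these cells in the Gpnmb values was not tested.

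Over the 36 arrays, with group means removed, the 9 genes formed no single block. Of 36 gene pairs 21 correlated positively and 8 above 0.5, with a median r of 0.21. Tyrobp and Msr1 went together most closely (r = 0.68), followed by Tyrobp with Abca1 (0.64) and Apoe with Abca1 (0.6). These were 0.79, 0.73 and 0.65 over the 28 arrays that are not narrow. Trem2 and Cd9 had an r of -0.61 over all arrays and of 0.16 without the narrow ones, and both moved with the array's SD (r = -0.86 and 0.71). Tyrobp, Abca1 and Msr1 followed the macrophage and monocyte markers (r = 0.81, 0.82 and 0.79), Gpnmb less closely (r = 0.54), and Trem2 did not (r = -0.15). Over those 28 arrays the same r was 0.92 for Tyrobp, 0.78 for Abca1, 0.87 for Msr1, 0.57 for Gpnmb and 0.3 for Trem2. Markers of other cells gave values of like size over all 36 arrays. Gpnmb had r of 0.53 with fibroblast and 0.52 with platelet and megakaryocyte markers, and Abca1 0.77 with blood endothelium and 0.67 with fibroblast markers. Apoe had r of 0.63 with fibroblast, 0.63 with blood endothelium and 0.59 with macrophage and monocyte markers, and Msr1 0.76 with neutrophil markers. Without the narrow arrays Gpnmb had 0.44 with fibroblast and 0.36 with platelet and megakaryocyte markers. Abca1 then had 0.77 with blood endothelium and 0.64 with fibroblast markers. Apoe had 0.6, 0.57 and 0.61 in the order given above, and Msr1 0.81 with neutrophil markers. These correlations are across arrays that share RNA quality, spread and processing, and are given as a description.

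**Figure D2:**
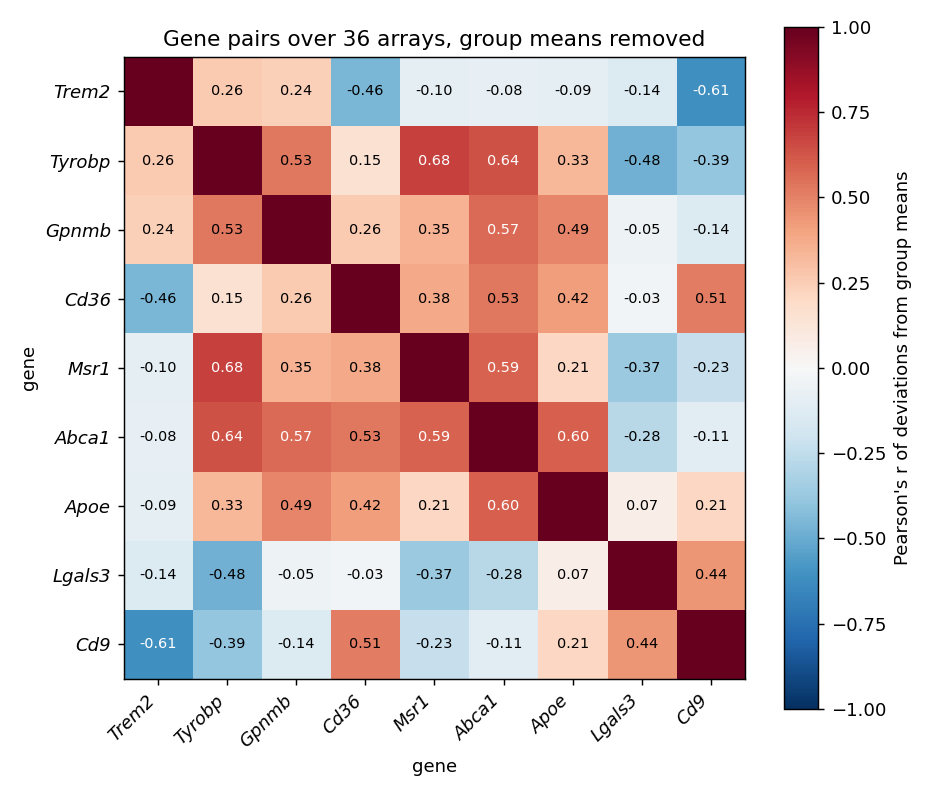
Pearson's r for each pair of the 9 genes (rows and columns) over 36 arrays, on quantile-normalized log2 values with group means removed; red is positive and blue negative. Pairs among Tyrobp, Gpnmb, Cd36, Msr1, Abca1 and Apoe are all red, from 0.15 (Tyrobp with Cd36) to 0.68 (Tyrobp with Msr1). Trem2 with Cd9 gives the lowest value, -0.61. That pair has 0.16 without the narrow arrays, where Lgals3 with Abca1 is lowest at -0.55.

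Among 19937 other genes with a probe set of their own, the 8 whose deviations were most like those of Gpnmb had r of 0.67 to 0.69. They were Tgfbr2, a receptor of TGF-beta, Cd68, a lysosomal glycoprotein of macrophages, Pdgfra, a growth factor receptor of fibroblasts, Ctsk, a lysosomal protease, Laptm5, a lysosomal membrane protein of blood cells, F2r, the thrombin receptor, Scarb1, a receptor for high-density lipoprotein, and Fabp5, a fatty acid carrier. On the deposited values without quantile normalization 2 of the 8 were among the first 8 again, and without the narrow arrays 1 of 8. Of the other measured members Abca1 came closest to Gpnmb, at rank 60 of 19937, then Tyrobp at 142 and Apoe at 235. For Msr1 the most like genes were Lilrb4a (r = 0.92), Nfam1 (0.91) and Mcemp1 (0.91), for Tyrobp they were Jam2 (0.86), Cd53 (0.85) and Serpina3n (0.83), and for Cd36 they were Ghr (0.89), Id2 (0.87) and Ces1d (0.87). Of these 3 genes, 0 for Msr1, 0 for Tyrobp and 1 for Cd36 were among the first 3 without the narrow arrays, and 1, 1 and 2 on the deposited values.

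Genes around the members were grouped in 9 lists. Over all lists 153 of 166 genes were measured, and 62 were called higher and 3 lower in scrambled than in Control by limma, against 7.27% of all probe sets called higher and 4.45% called lower. This contrast also served to choose Gpnmb, so the counts are a description. Without the narrow arrays 68 list genes were called higher and 23 lower, against 28% and 21.9% of all probe sets, so the share called lower lay below the background. None of the list genes was called in any comparison among siRNA-dosed groups. Of the 153, 4 had an unadjusted p under 0.05 in siTNF, 10 in siTNF-OMe and 7 in siTNF-OMe-P, each over scrambled. The number was 6 in siTNF-OMe-P over siTNF, 1 in siTNF-OMe-P over siTNF-OMe and 5 in siTNF-OMe over siTNF. In the same order, 311, 455, 836, 1002, 74 and 494 of all probe sets had such a p. The list shares were not tested against those of all probe sets.

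The lipid-associated macrophage signature holds the genes that accompany Gpnmb and Trem2 in lipid-laden macrophages. In scrambled over Control it held the largest share: 18 of 23 measured genes were called higher and none lower, with a median of 0.57 log2. It did not lead in every group. For siTNF over Control the count was 14 of 23, against 14 of 20 lysosome genes and 8 of 12 integrins and other receptors. For siTNF-OMe over Control it was 16 of 23 (median 0.59), against 12 of 20 and 10 of 12 (median 0.62 for the last). For siTNF-OMe-P over Control it was 16 of 23, against 12 of 20 and 8 of 12. Over all probe sets, 2624 were called higher in siTNF, 2599 in siTNF-OMe and 2698 in siTNF-OMe-P, each over Control. In scrambled over Control 2099 were called higher, which is the 7.27% given above. Fabp5, a fatty acid carrier, was 1.9 ± 0.16 log2 higher, at 10.98 to 11.88 in scrambled and 9.27 to 9.71 in Control. Cd68, the lysosomal glycoprotein, was 1.87 ± 0.12 higher, at 10.86 to 11.36 in scrambled and 8.71 to 9.61 in Control. Clec7a, the beta-glucan receptor Dectin-1, was 1.83 ± 0.13 higher and Lyz2, the lysozyme of myeloid cells, 1.37 ± 0.13 higher. Scrambled and Control arrays did not overlap for any of these 4 genes. Without the narrow arrays the differences were 1.85 log2 for Fabp5, 1.62 for Cd68, 1.69 for Clec7a and 1.12 for Lyz2.

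In the list of TREM2-TYROBP receptor signalling 8 of 18 measured genes were called higher and none lower, with a median of 0.27 log2. Fcer1g, the Fc receptor gamma chain that serves as an adaptor like Tyrobp, was 1.76 ± 0.17 log2 higher. Syk, the kinase that both adaptors recruit, was 0.6 ± 0.1 higher, Pik3ap1, an adaptor of phosphoinositide 3-kinase, 0.48 ± 0.099, and Pik3cd, its delta catalytic subunit, 0.41 ± 0.096. Without the narrow arrays 13 genes of this list were called higher, with 28% of all probe sets called higher in that fit. Fcer1g then differed by 1.48 log2, Syk by 0.44, Pik3ap1 by 0.61 and Pik3cd by 0.48.

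Lysosome genes under MITF and TFE factors were called higher in 11 of 20 cases, none lower, with a median of 0.38 log2. Ctsk, the lysosomal protease, was 0.87 ± 0.15 log2 higher, and Tfec, itself a factor of the family, 0.63 ± 0.12. Ctsa, a protective lysosomal carboxypeptidase, was 0.49 ± 0.095 higher, and Psap, the precursor of the saposins, 0.47 ± 0.056. Without the narrow arrays Ctsk differed by 0.77 log2, Tfec by 0.8, Ctsa by 0.25 and Psap by 0.33. Among integrins, CD44 and other receptors of osteopontin and GPNMB, 8 of 12 were called higher and none lower, with a median of 0.48 log2. Itga5, of the fibronectin receptor, was 1.31 ± 0.16 log2 higher, and Itgb1, Itga9 and Itga4 were 0.65 ± 0.12, 0.62 ± 0.11 and 0.52 ± 0.099 higher. Without the narrow arrays Itga5 differed by 0.91 log2, Itgb1 by 0.35, Itga9 by 0.34 and Itga4 by 0.48.

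Few genes of cholesterol and fatty acid metabolism were called. Of 16 genes of cholesterol efflux and liver X receptor targets 2 were called higher: Pltp, a phospholipid carrier of plasma (0.55 ± 0.11 log2), and Abcg1, the partner of Abca1 in efflux (0.26 ± 0.075). Of 19 genes of fatty acid uptake, storage and oxidation 1 was called higher, Mgll, monoglyceride lipase (0.69 ± 0.15). Without the narrow arrays Pltp differed by 0.31 log2, Abcg1 by 0.26 and Mgll by 0.42. No gene of either list was called lower, but without the narrow arrays 6 genes of the efflux list and 7 of the fatty acid list were, in a fit that called 21.9% of all probe sets lower. The main counts, 2 of 16 and 1 of 19, lie near the background of 7.27%.

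Of 22 other scavenger and apoptotic cell receptors 5 were called higher and none lower, and 13 were called higher without the narrow arrays, where 28% of all probe sets were. Cxcl16, a chemokine that also binds oxidized lipoprotein, was 1.09 ± 0.12 log2 higher, and Mrc1, the mannose receptor, 1.0 ± 0.2. Stab1, a receptor for modified lipoprotein, was 0.96 ± 0.14 higher, and Colec12, a scavenger receptor with a lectin domain, 0.66 ± 0.1. Without the narrow arrays Cxcl16 differed by 0.85 log2, Mrc1 by 0.54, Stab1 by 0.65 and Colec12 by 0.51. Relatives of Cd9 and Lgals3 were listed too. Of 15 other tetraspanins 5 were called higher and 1 lower, led by Cd53 of leukocytes (1.12 ± 0.16), with Tspan4 (0.85 ± 0.15), Tspan9 (0.6 ± 0.15, not called without the narrow arrays) and Tspan8 (0.31 ± 0.095), while Tspan33 fell by 0.69 ± 0.14. Of 8 other galectins and galectin-binding genes 4 were called higher, Lgals3bp (1.14 ± 0.16), Lgals9 (0.95 ± 0.12), Lgals8 (0.53 ± 0.15, not called without the narrow arrays) and Lgals1 (0.41 ± 0.062). The 2 called lower were Lgals12 (fell by 0.66 ± 0.12) and Lgals2 (fell by 0.39 ± 0.072). Without the narrow arrays the tetraspanins Cd53, Tspan4, Tspan9, Tspan8 and Tspan33 had 0.9, 0.68, 0.19, 0.16 and -0.96 log2. Likewise, Lgals3bp, Lgals9, Lgals8, Lgals1, Lgals12 and Lgals2 had 0.76, 0.87, 0.14, 0.3, -0.87 and -0.59 log2.

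**Figure D3:**
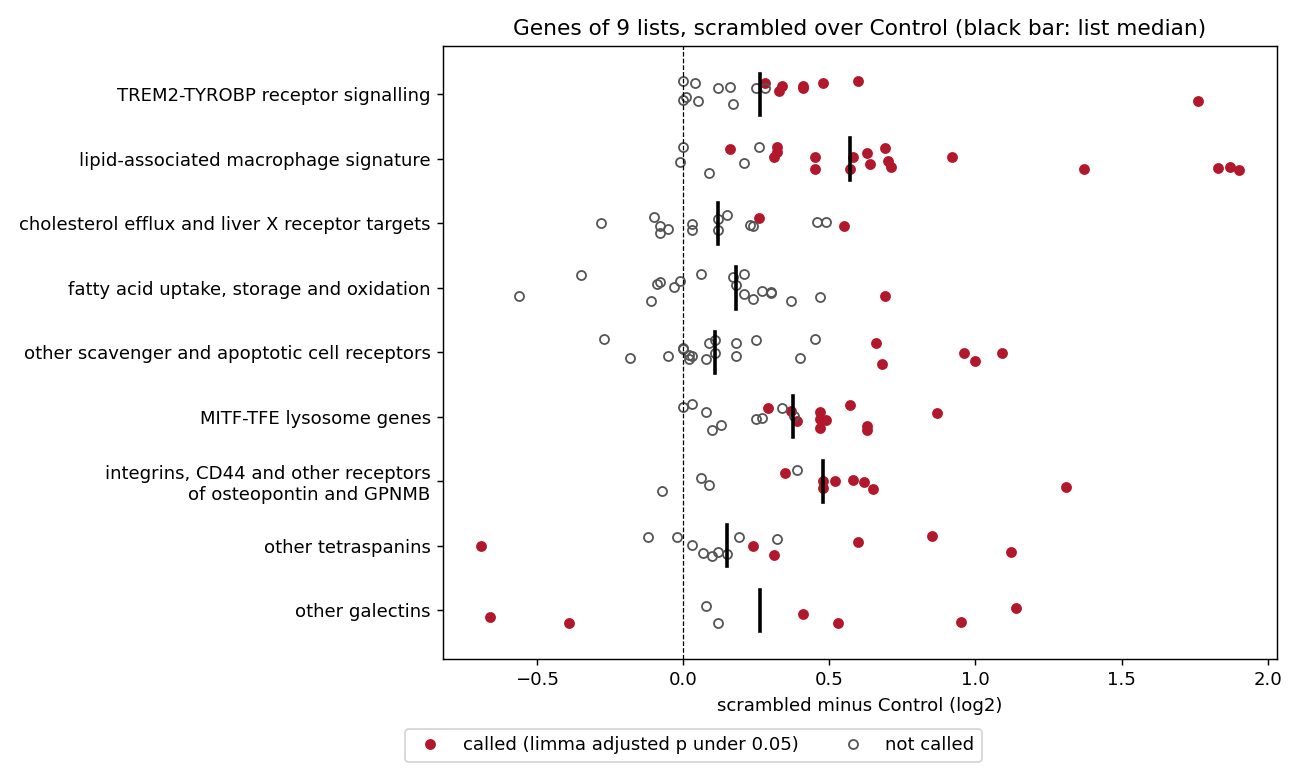
Difference between scrambled and Control in log2 (horizontal axis) for each measured gene of the 9 lists (rows); filled points were called by limma, open points were not, and black bars are list medians. The lipid-associated macrophage signature has the highest median, 0.57, and the filled points left of 0 are Tspan33, Lgals12 and Lgals2.

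The siRNAs against TNFa were then set against the scrambled siRNA and against each other, in 6 pairs. No member was called in any of them (limma, Benjamini-Hochberg over all probe sets), and none had an unadjusted p under 0.05. The background was the same, with 0% of all probe sets called in each of the 6 comparisons by this fit, while some alternatives called probe sets that were no members. Probe sets with an unadjusted p under 0.05 numbered 311 in siTNF over scrambled, 455 in siTNF-OMe over scrambled, 836 in siTNF-OMe-P over scrambled, 1002 in siTNF-OMe-P over siTNF, 74 in siTNF-OMe-P over siTNF-OMe and 494 in siTNF-OMe over siTNF. The comparisons with scrambled share 7 arrays with the contrast on which Gpnmb was chosen, and those among the TNF siRNAs do not.

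Against scrambled, Gpnmb differed by 0.08 log2 in siTNF (95% interval -0.26 to 0.41), by 0.33 in siTNF-OMe (-0.01 to 0.66) and by 0.15 in siTNF-OMe-P (-0.16 to 0.46). All 3 limma adjusted p were 1.0. The siTNF-OMe value was the largest difference of any member in the 6 comparisons, with an unadjusted p of 0.0558. Its interval reaches from 0.994-fold to 1.58-fold. For Tyrobp the corresponding differences were 0.01, 0.22 and 0.12 log2, for Msr1 0.19, 0.31 and 0.18, and for Cd36 0.24, 0.13 and 0.08. The 95% intervals over all 9 genes and the 3 siRNAs stayed between 0.715-fold and 1.8-fold, both bounds being those of Cd36. For Lgals3 they ran from 0.874-fold to 1.09-fold and for Cd9 from 0.875-fold to 1.1-fold.

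The siRNA with O-Methyl nucleotides did not separate from the unmodified one. Gpnmb differed by 0.25 log2 between siTNF-OMe and siTNF (95% interval -0.1 to 0.6), and Apoe, with the smallest p of this pair, by 0.2 (-0.01 to 0.41, unadjusted p of 0.0611, limma adjusted p = 1.0). Between siTNF-OMe-P and siTNF-OMe, which differ by the propanediol part, the Gpnmb difference was -0.18 log2 (-0.5 to 0.15). Between siTNF-OMe-P and siTNF it was 0.07 log2 (-0.25 to 0.4). Over these 3 pairs the intervals of the 9 genes ran from 0.594-fold to 1.52-fold, the lowest bound being that of Cd36 and the highest that of Gpnmb. These intervals do not show that the siRNAs act alike.

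**Figure D4:**
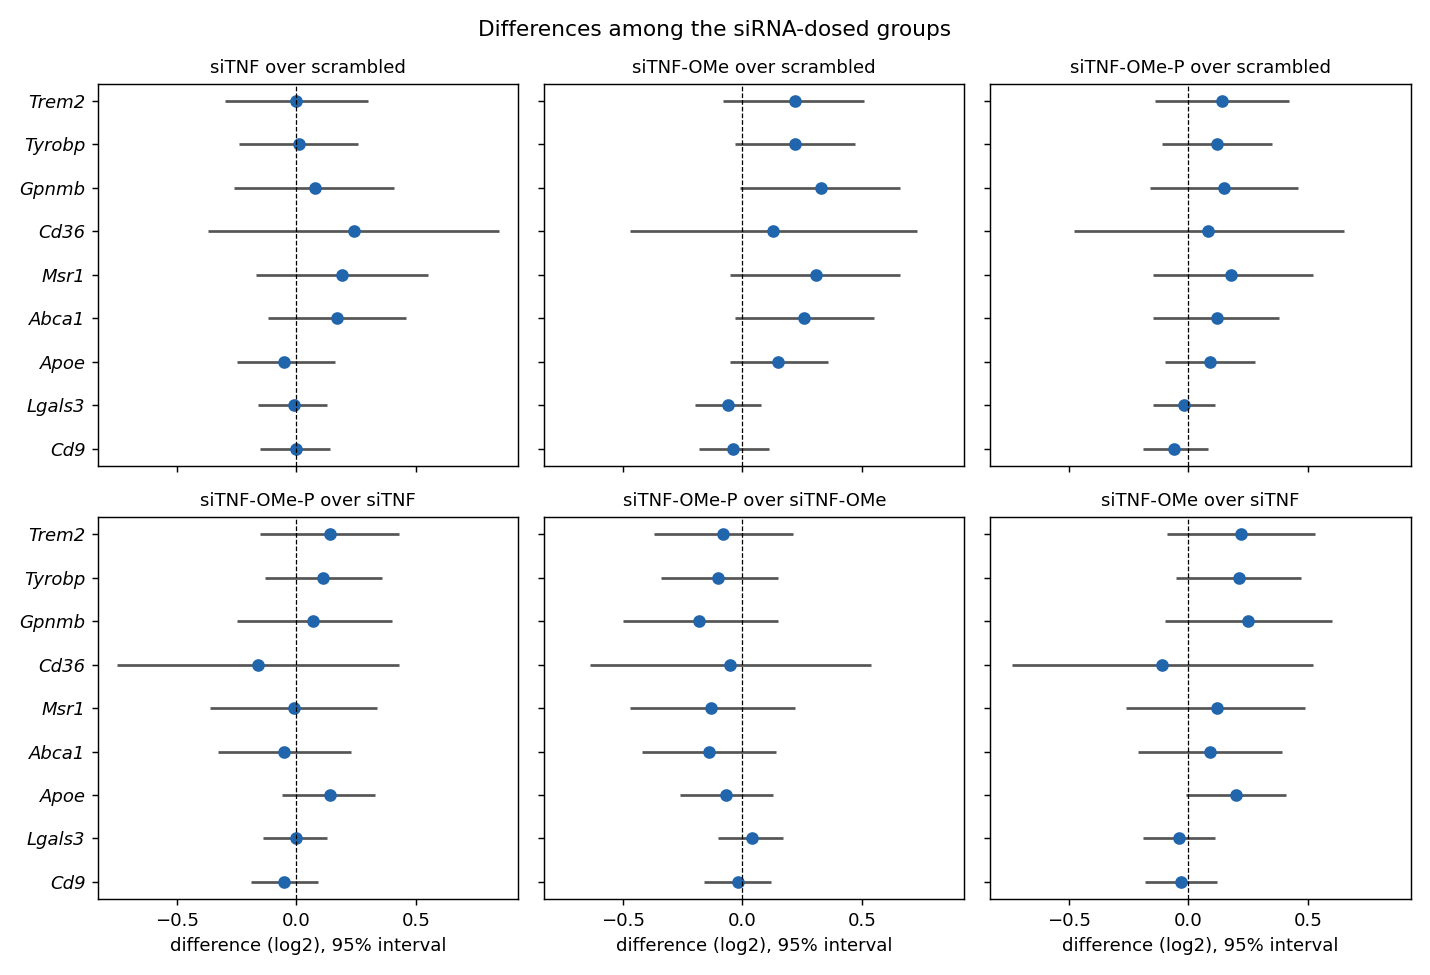
Differences in log2 (points) with 95% intervals (lines) for the 9 genes (rows) in the 6 comparisons among siRNA-dosed groups (panels). Every interval holds 0, and those of Cd36 are the widest.

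The order of the group means was alike for several members. The siTNF-OMe mean was the highest of the 5 for Gpnmb (10.87 log2), Trem2 (9.54), Tyrobp (12.21), Apoe (13.21), Abca1 (9.47) and Msr1 (8.3), and the Control mean was the lowest for 8 of the 9 genes, all but Lgals3. The siRNA-dosed means of Gpnmb spanned 0.34 log2, no more than the median SD within those groups, 0.34, and those of Cd36 spanned 0.27 against an SD of 0.55. The span exceeded that SD for Trem2 (0.25 against 0.16), Tyrobp (0.23 against 0.18), Apoe (0.18 against 0.12) and Abca1 (0.29 against 0.24). Neighbours in the order among the siRNA-dosed groups did not differ beyond their spread. Squamous epithelium markers differed in their range between these groups, with a list mean of 7.2 to 8.97 log2 in siTNF, 7.33 to 10.4 in siTNF-OMe, 7.35 to 10.99 in siTNF-OMe-P and 7.23 to 7.45 in scrambled, of 10 markers measured. Within groups the mean of this list had an r of 0.4 with Gpnmb, and its part in the member values was not tested.

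Finally the members were set against the labelled measures of the colon in the 27 siRNA-dosed mice: myeloperoxidase (MPO) activity, an enzyme measure of neutrophils, colon length, and the ratio of weight to length. Of 27 relations none passed after adjustment (two-sided permutation tests, Benjamini-Hochberg over 27), and 1 had an unadjusted p under 0.05. This was Tyrobp against MPO activity, with r = 0.43 (permutation p = 0.0263, adjusted p = 0.71) and Spearman's rho = 0.4 (permutation p = 0.0392, adjusted p = 0.625). Without the 2 mice farthest from the median MPO activity r was 0.34, and within hybridization dates 1 and 2 it was 0.66 and 0.1. With group means removed r was 0.47 (permutation test, adjusted p = 0.333). In that repeat 2 of 27 relations had an unadjusted p under 0.05, and none passed after adjustment.

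Msr1 followed with r = 0.37 (permutation p = 0.0535, adjusted p = 0.723, rho = 0.36 with permutation p = 0.0695), and Gpnmb had r = 0.27 (permutation p = 0.176, adjusted p = 0.79, rho = 0.21 with permutation p = 0.285). Without the 2 farthest mice these were 0.32 for Msr1 and 0.43 for Gpnmb, and within hybridization dates 1 and 2 they were 0.52 and 0.06 for Msr1 and 0.4 and 0.07 for Gpnmb. With group means removed r was 0.43 for Msr1 and 0.28 for Gpnmb. Lgals3 and Cd9 were the 2 members with a negative r to MPO activity (-0.32 and -0.17). Colon length correlated with the members at r of -0.07 to 0.28, and the weight to length ratio at -0.15 to 0.21.

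**Figure D5:**
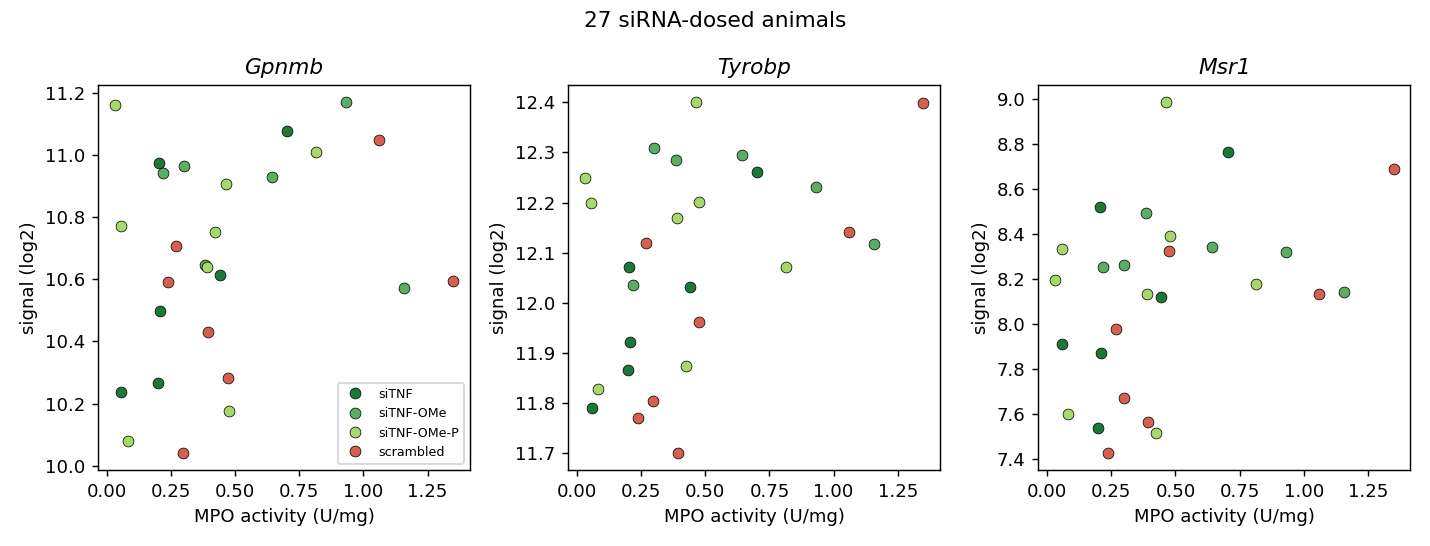
Log2 signal of Gpnmb, Tyrobp and Msr1 (vertical axes) against MPO activity in U/mg (horizontal axes), 1 point per siRNA-dosed mouse, coloured by group. The points scatter widely, with r of 0.27 for Gpnmb, 0.43 for Tyrobp and 0.37 for Msr1.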

How the data were processed

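The series holds Affymetrix array data on the distal colon of 36 mice, with 1 array for each mouse; per the labels' protocols, 25 ng of total RNA was amplified and biotin-labelled. The deposited values are log2 signals made by the authors with RMA in Partek, per the submitters' processing notes; versions, background settings and the annotation release are not given in the sources used here. They range from 4.95 to 14.1 and were used as deposited. RMA compresses low signals, so differences of dim genes may be understated, and precision is limited by how many arrays a group has.

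Of the probe sets on the array, 21789 had 1 gene symbol in the annotation given, 1621 several and 5443 none. Groups came from the sample titles. Differences were fitted in R 4.3.3 by limma 3.58.1 (lmFit, eBayes with a mean-variance trend, 36 arrays in 1 fit, amplification and hybridization date as terms, 28 residual degrees of freedom), with Benjamini-Hochberg adjustment over all probe sets and a threshold of 0.05. The fit was tested on simulated data. Relations to colon measures used 100000 permutations. Nothing in the labels says more of the mice than that they were separate samples, so p-values measure the spread between them. The labelled replicate numbers were not taken as pairs.

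Named genes were the members, up to 4 higher and 2 lower called genes of smallest p per list, and the genes most like each member by r. The members and lists were chosen with earlier results of these data known. Alternatives covered dates, normalization, narrow arrays, array weights, moderation, thresholds and leaving out each array. The expression of Spp1 was not analysed here.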

Additional observations from a re-analysis of the deposited data

Results flagged for a closer look

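In each group of 6 to 9 arrays the highest and lowest signal of each member was set against the rest of its group by the gap to the nearest array over the group's range. Of 45 groups of values 1 stood out: Tyrobp in Control replicate 4, at 10.0 log2, with the next lowest Control array at 10.71. The gap took 0.632 of the range, against a limit of 0.493 for 9 arrays. This array had an SD of 1.55 over its probe sets, the lowest of the 36, and the mouse had an MPO activity of 0.076 U/mg. Chance alone marks about 1 in 20 groups.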

How the results depend on the processing

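No member was called in any of the 6 comparisons among siRNA-dosed groups under any alternative run, the replicate block included (0 called in each), and leaving out each array in turn gave 0 to 0. Over all probe sets, some alternatives called features in these comparisons: up to 198 with array weights, up to 8 with the array SD as a covariate, up to 4 with quantile normalization, 1 with median centring, 1 to 63 within amplification date 1 and up to 17 within date 2. The median member difference over Control kept its sign throughout. Leaving out 1 array moved it to 0.88 to 1.06 log2 in siTNF, 0.84 to 1.08 in siTNF-OMe, 0.81 to 1.02 in siTNF-OMe-P and 0.68 to 0.85 in scrambled. With the replicate block siTNF had 0.9, siTNF-OMe 0.94, siTNF-OMe-P 0.98 and scrambled 0.73. Within amplification date 3 siTNF had 0.33, siTNF-OMe 0.72 and siTNF-OMe-P 0.45, each from 2 arrays and 3 Control arrays; the cause was not tested. Same-numbered arrays of different groups deviated together with a median r of 0.12 (-0.7 to 0.87 over 64 pairs). Different-numbered ones had a median r of -0.01 (-0.86 to 0.82 over 451 pairs). The numbers were not taken as pairs. They run with the amplification dates within each group, so this check can neither show nor exclude pairing. The 3 list genes called lower in scrambled than in Control became 6 with quantile normalization, 23 without the narrow arrays and 8 with the array SD as a covariate, and the 62 called higher became 66, 68 and 78. Over all probe sets 3384 were called in scrambled over Control, 14417 without the narrow arrays and 7372 with the array SD as a covariate; leaving out 1 array gave 2629 to 3565. No relation to a colon measure passed under any alternative. Signals near the dim end and the 1 probe set per member limit what these arrays can show.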

Other observations

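Some values outside the comparisons concern the array spread. After group means were removed, Cd9 and Cd36 went up with an array's SD (r = 0.71 and 0.7 over 36 quantile-normalized arrays). Trem2 went down (r = -0.86), and the other 6 members had r of -0.11 to 0.29. On the deposited values, from which levels and differences are given, r was 0.81 for Cd9, 0.69 for Cd36 and -0.71 for Trem2. It was 0.58 for Apoe, 0.39 for Tyrobp, 0.39 for Abca1, 0.34 for Lgals3, 0.04 for Gpnmb and -0.04 for Msr1. Trem2 also followed the mean of 6 melanocyte markers (r = 0.83), 7 dendritic cell markers (r = 0.81) and 5 osteoclast and bone markers (r = 0.78), of which 3, 3 and 4 were among the dimmest 40% of probe sets. With the narrow arrays left out these r were 0.2, 0.24 and 0.18. The genes most like Trem2 were Evl, Defb21 and Fgd2 (r = 0.9 each), and none of them was among its first 3 without the narrow arrays, where Bmp6 led (r = 0.85).

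Neutrophil markers were called higher in scrambled than in Control for 3 of 10 measured genes, dendritic cell markers for 1 of 7, T and NK cell markers for 2 of 7, and colon epithelium markers for 2 of 10, against 7.27% of all probe sets. B and plasma cell markers were called lower for 3 of 6, against 4.45%, and no platelet or squamous marker was called. The neutrophil list mean ran from 7.92 to 8.97 log2 in scrambled and from 7.35 to 8.03 in Control, and within groups it had an r of 0.76 with Msr1, 0.68 with Abca1 and 0.66 with Tyrobp.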
